A study of Homo sapiens with 79 samples.

Results

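WDR5 fRIP was compared with input RNA in K562 cells, a human line from a chronic myeloid leukemia with features of red cell precursors. In fRIP, RNA and protein are fixed to each other in the cell with a low dose of formaldehyde (0.1%), the cells are broken by sonication, and RNA that comes down with an antibody against 1 protein is sequenced. The comparison rests on 6 of the 79 libraries of the series. The first 3 are WDR5 fRIP replicates 1 to 3, made with 1 commercial antibody against WDR5, and the other 3 are replicates 1 to 3 of input set 2, RNA taken from lysate of the same cross-linked line with no antibody. All 6 come from untreated, unmodified cells, and the study describes the replicates as separate dates and lysates. The other 6 input libraries (sets 1 and 3) served as a check, and the 3 libraries of RBBP5 fRIP, made with an antibody against a partner of WDR5, as a second comparison. No library made with a non-specific antibody was analysed here, but the study included STAG2, a cohesin subunit, as a negative control, and its 2 libraries are given beside some results. A value is the share of an RNA in what a library holds, so it does not measure how much RNA was recovered, and it does not separate direct contact with WDR5 from recovery through other proteins or through the antibody and beads.

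WDR5 is a WD40-repeat protein of the COMPASS complexes, which methylate lysine 4 of histone H3 (H3K4) at active promoters and enhancers. It holds together a core with RBBP5, ASH2L and DPY30 on which the KMT2 and SETD1 methyltransferases act, and it is also a subunit of the NSL complex, which acetylates histone H4. Long noncoding RNAs (lncRNAs) such as HOTTIP are known to bind WDR5 and to bring it to HOX genes in other cell types.

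Levels were given by the authors as FPKM (fragments per kilobase of transcript, scaled to the depth of the library), and differences are given as log2 of FPKM + 1, WDR5 minus input, a scale that compresses changes at low FPKM. Enriched or depleted means a change over 2-fold with an adjusted p (Benjamini-Hochberg) under 0.05, from limma with the replicate number as a block. Low FPKM values move in steps of single fragments, and from these steps the depth was about 24.1, 29 and 8.5 M (mega) fragments in WDR5 replicates 1, 2 and 3 and 28.2 to 31.4 M in the input libraries, so WDR5 replicate 3 gives the least precise low values. Pearson correlations of log2(FPKM + 1) were 0.976 to 0.990 among the WDR5 libraries and 0.955 to 0.969 between them and input set 2 (0.935 to 0.952 with set 1, 0.955 to 0.970 with set 3). All 10 K562 markers examined (globins and the erythroid factors GATA1, TAL1, KLF1 and NFE2 among them) passed the filter on low values. Of 8 markers of other cell types, 6 stayed under 1 FPKM in all 6 libraries, and the highest of the 8 was EPCAM, an epithelial adhesion protein (mean 36.1 FPKM in input).

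The sequences below show the kinds of RNA that the comparison turned on, in hg19 (GRCh37) coordinates. Each is 120 bases, 5′ to 3′ on the strand of the gene, from the longest exon of the transcript with most input FPKM (its coding part for mRNAs), at the place nearest the middle of that stretch where the number of CG dinucleotides is nearest the average of the transcript. CG dinucleotides are in capitals. The first 6 are from RNAs enriched in WDR5 fRIP, namely 2 single-exon lncRNAs and 4 mRNAs, of which ZNF639 is shown as one with few CG, and the last is from a depleted lncRNA.
NORAD, exon 1 of 1, chr20:34635558-34635677, minus strand: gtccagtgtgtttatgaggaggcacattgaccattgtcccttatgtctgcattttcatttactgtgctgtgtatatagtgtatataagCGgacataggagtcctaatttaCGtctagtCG
HCG11, exon 1 of 1, chr6:26525286-26525405, plus strand: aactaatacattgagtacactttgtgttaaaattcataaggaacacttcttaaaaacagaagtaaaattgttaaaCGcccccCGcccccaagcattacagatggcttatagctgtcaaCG
PPP1R26, coding exon 4 of 4, chr9:138378141-138378260, plus strand: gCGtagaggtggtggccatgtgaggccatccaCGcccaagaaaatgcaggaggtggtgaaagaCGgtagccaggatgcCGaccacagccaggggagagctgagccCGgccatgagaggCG
CHST2, coding exon 2 of 2, chr3:142840247-142840366, plus strand: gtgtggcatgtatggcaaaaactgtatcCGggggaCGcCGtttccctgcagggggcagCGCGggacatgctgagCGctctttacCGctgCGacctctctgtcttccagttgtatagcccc
ZBTB42, coding exon 1 of 1, chr14:105268107-105268226, plus strand: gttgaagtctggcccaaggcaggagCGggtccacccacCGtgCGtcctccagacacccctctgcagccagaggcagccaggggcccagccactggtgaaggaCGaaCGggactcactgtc
ZNF639, coding exon 5 of 5, chr3:179051458-179051577, plus strand: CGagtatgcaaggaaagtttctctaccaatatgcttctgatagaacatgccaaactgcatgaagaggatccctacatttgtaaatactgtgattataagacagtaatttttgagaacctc
ANKRD10-IT1, exon 2 of 2, chr13:111547267-111547386, minus strand: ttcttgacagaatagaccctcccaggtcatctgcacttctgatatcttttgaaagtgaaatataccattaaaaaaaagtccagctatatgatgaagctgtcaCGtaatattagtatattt
Over the whole transcripts, CG made up 9.13 per 100 bases in B3GALT6 and 6.49 in CHST2. The value was 2.17 in NORAD and 2.16 in HCG11, and it was 0.625 in ANKRD10-IT1 and 0.462 in ZNF639.

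The question was which RNAs are recovered with WDR5 beyond their level in lysate. Of 16983 genes tested, 895 (5.27%) were enriched and 1416 (8.34%) depleted in WDR5 fRIP. All 3 WDR5 libraries lay above all 3 input libraries for 856 of the enriched genes, and below them for 1336 of the depleted genes. The median change over all genes was -0.09, and the exact permutation test over 3 against 3 libraries cannot give a p under 0.1 for a single gene, so calls rest on the limma fit across genes. Most enriched genes encoded mRNAs and most depleted genes did not. Of 11363 mRNA genes tested, 707 (6.22%) were enriched and 203 (1.79%) depleted, with a median change of 0.01. Of 2596 lncRNA genes, 105 (4.04%) were enriched and 408 (15.7%) depleted, with a median of -0.24. The classes were not matched for level here. In the highest of 4 bins of lncRNAs by input level (at least 5.44 FPKM), 8.63% were enriched and 14.5% depleted, with a median of -0.05. With mRNAs sampled to the lower levels of lncRNAs, the study reports a slight preference of WDR5 for mRNAs. Of 1809 processed pseudogenes, which are copies of spliced mRNAs and share reads with their parent genes, 12 were enriched and 623 (34.4%) depleted, with a median of -0.80. STAG2 fRIP had medians of -0.16 for lncRNAs and -0.40 for processed pseudogenes against the same inputs. Set against STAG2 fRIP, WDR5 fRIP had medians of -0.06 for lncRNAs, -0.29 for processed pseudogenes and -0.05 for all genes. Many depleted genes had low values: among the 10488 genes with a mean of at least 5 FPKM, 781 were enriched and 306 depleted.

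**Figure D1:**
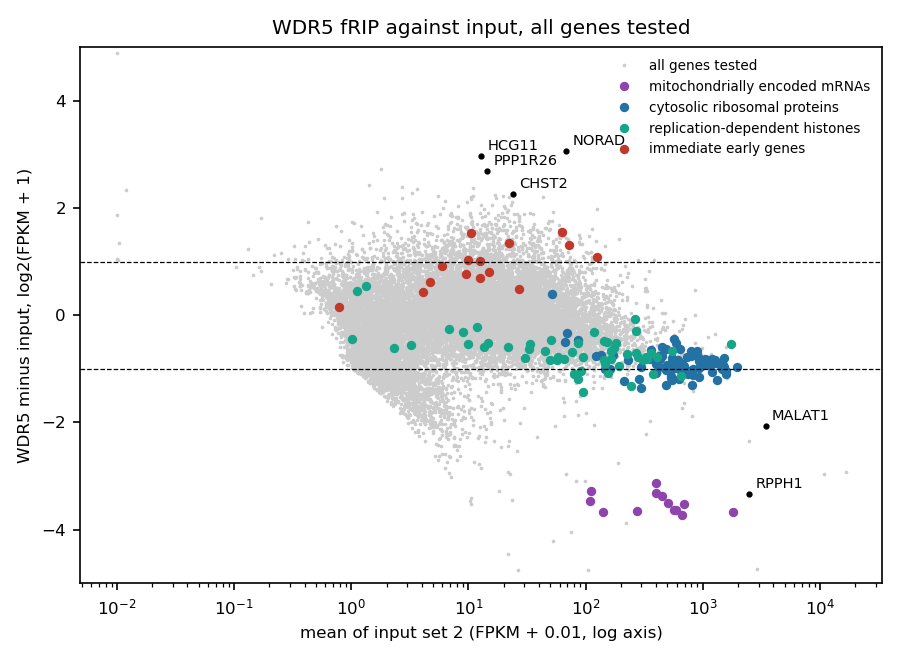
Change of each tested gene (WDR5 minus input, log2(FPKM + 1), vertical axis) against its mean level in the 3 libraries of input set 2 (FPKM + 0.01, log axis), with 4 gene groups in colour and 6 RNAs named; dashed lines mark a 2-fold change. The 13 mitochondrially encoded mRNAs lie between -3.72 and -3.12, NORAD lies at 3.06, and 13 genes below -5 are outside the axis.

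Of the 707 enriched mRNAs, 10 are given here, those with the largest changes among mRNAs with groups apart and a mean of at least 5 FPKM in WDR5 fRIP that are reported. PPP1R26, a regulatory subunit of protein phosphatase 1, was at 98.9, 83.4 and 114 FPKM in WDR5 replicates 1, 2 and 3 and at 13.7, 13.3 and 16.4 FPKM in the input libraries. This is a change of 2.68 ± 0.064 (SE), with an adjusted p of 7.04e-05, and the groups did not overlap. CHST2, a sulfotransferase that modifies N-acetylglucosamine on the sugar chains of glycoproteins, was at 123, 116 and 117 FPKM against 23.3, 24.7 and 23.8 FPKM. Its change was 2.26 ± 0.057 (SE, adjusted p 7.04e-05), and its WDR5 values were nearly the same in all 3 replicates. B3GALT6, a galactosyltransferase needed for the linker of glycosaminoglycans, was at 49.5, 47.8 and 65.6 FPKM against 9.59, 9.82 and 13.1 FPKM, a change of 2.22 ± 0.060 (SE, adjusted p 7.04e-05). MGAT3, which adds the bisecting N-acetylglucosamine to N-glycans, changed by 2.22 ± 0.084 (SE), from a mean of 5.44 to 29 FPKM.

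ZBTB42, a zinc finger repressor, was at 17.9, 19.2 and 31.3 FPKM in WDR5 fRIP and at 2.73, 3.2 and 5.03 FPKM in input. Replicate 3 was the highest of its group in both, and the change was 2.34 ± 0.083 (SE, adjusted p 7.04e-05). ZNF639, another zinc finger protein, was at 169.7, 184 and 257 FPKM against 34.5, 43 and 52.8 FPKM, a change of 2.20 ± 0.062 (SE). KLF13, a Krüppel-like transcription factor, changed by 2.28 ± 0.10 (SE) and THAP12, a THAP domain protein listed as PRKRIR in the table, by 2.24 ± 0.082 (SE). The 10 also included RIOX1, a histone demethylase and ribosomal oxygenase, with 2.42 ± 0.23 (SE), and MFHAS1, a leucine-rich repeat protein, with 2.20 ± 0.078 (SE). RIOX1 was low and uneven, at 6.22, 7.17 and 20.9 FPKM in WDR5 fRIP and at 0.972, 0.000607 and 3.28 FPKM in input, with input replicate 2 near 0. With a pseudocount of 0.1 FPKM the log2 fold change of RIOX1 was 3.79. RIOX1 is listed as AC005280.1 and overlaps the HEATR4 gene. All 10 were above input in every library, and against all 9 input libraries their changes were 2.20 to 2.65.

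NORAD, a lncRNA known for its part in genome stability (chr20:34633540-34638940, minus strand, 1 exon, listed as LINC00657), had the largest change of the lncRNAs named by the rule. It was at 560.1, 490.3 and 693 FPKM in the WDR5 libraries and at 68.7, 62.3 and 74.2 FPKM in the input libraries. The change was 3.06 ± 0.067 (SE), 8.32-fold, with an adjusted p of 6.11e-05. HCG11, a lncRNA of chromosome 6 (chr6:26521937-26527632, plus strand, 1 exon), was at 124, 109 and 86.8 FPKM against 14.7, 13.7 and 10.02 FPKM, and replicate 3 was the lowest of its group in both. Its change was 2.96 ± 0.056 (SE, adjusted p 5.09e-05). LINC00205, another of those named by the rule, changed by 2.19 ± 0.14 (SE), from a mean of 2.68 to 15.6 FPKM. The others named by the rule, RP11-367J11.2 (2.22 ± 0.072) and RP13-638C3.4 (2.17 ± 0.068), overlap mRNA genes. The first overlaps TADA2B (2.11) and TBC1D14 (1.72) on the other strand and CCDC96 on the same strand, and RP13-638C3.4 overlaps FOXK2 (1.32) on the other strand. As the library kit does not mark strand, the reads of these genes cannot be told apart.

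Of the enriched RNAs that are neither mRNAs nor lncRNAs, the naming rule gave 5, and 4 of them overlap an enriched mRNA gene. AP001266.1, with a change of 2.72 ± 0.14 (SE), is listed as a pseudogene but lies inside the mRNA gene AP5B1 on the same strand, which changed by 1.18. The transcribed pseudogene ZBED10P, listed as ZBED6CL, changed by 2.20 ± 0.075 (SE) and overlaps LRRC61 (1.42) on the same strand and ACTR3C (-0.59) on the other. CUTALP, listed as PSMD5-AS1, changed by 1.98 ± 0.091 (SE), while PSMD5, the proteasome chaperone gene on the other strand that it overlaps, changed by -0.45. RP11-54F2.1 changed by 2.19 ± 0.12 (SE) and overlaps ANKRD33B (1.68) on the other strand, and CTD-2619J13.16 changed by 1.57 ± 0.11 (SE) and overlaps ZNF584 (1.12) on the same strand. The reads of these pairs cannot be told apart by strand.

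**Figure D2:**
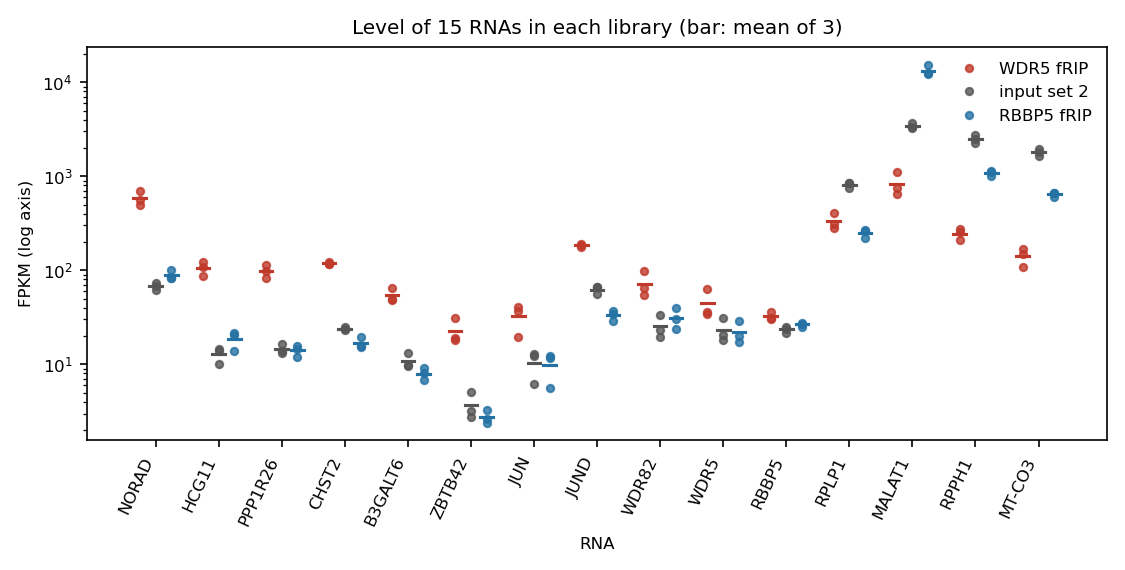
FPKM (log axis) of 15 RNAs in each of the 3 libraries of WDR5 fRIP, input set 2 and RBBP5 fRIP, with a bar at the mean of each group. NORAD, HCG11, PPP1R26 and CHST2 stand above both input and RBBP5 fRIP in WDR5 fRIP, while MT-CO3, RPPH1 and MALAT1 stand below both.

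The mitochondrially encoded mRNAs, which are made and translated inside mitochondria, had the lowest median of the gene lists. All 13 were depleted, where 1.79% of all mRNAs were, with a median of -3.52 and a range of -3.72 (MT-ND4L) to -3.12 (MT-ND5). MT-CO3, a subunit of cytochrome c oxidase, was at 150.4, 109 and 169 FPKM in WDR5 fRIP and at 1969.5, 1646 and 1792 FPKM in input, a change of -3.67 ± 0.10 (SE, adjusted p 7.04e-05). Together the 13 made up 0.134%, 0.109% and 0.169% of the summed FPKM of mRNAs in the WDR5 libraries and 1.59%, 1.38% and 1.48% in the input libraries. The same sum was 0.681% to 0.701% in RBBP5 fRIP, between the other groups. In STAG2 fRIP the median change from input set 2 was -1.22. MT-CO3 was below input in 21 of the 24 fRIPs of the series, with PHF8 (-3.70), EZH2 (-3.97), DNMT1 (-4.07) and PCAF (-4.82) lower than WDR5. Of 14 mitochondrial tRNAs tested, 13 were also depleted (8.34% of all genes were). They are very short, and several were listed at 0 in WDR5 libraries, MT-TS2 in all 3.

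Some noncoding RNAs known to act in the nucleus were depleted as well. MALAT1, an abundant lncRNA of nuclear speckles, was at 749, 642 and 1119 FPKM in WDR5 fRIP and at 3717, 3355 and 3230.2 FPKM in input. The groups did not overlap, and the change was -2.07 ± 0.18 (SE, adjusted p 0.000395). RPPH1, the RNA of ribonuclease P, which processes tRNA precursors, was at 255, 209 and 275 FPKM against 2721, 2472 and 2285 FPKM, a change of -3.34 ± 0.11 (SE). RPPH1 holds many CG (6.74 per 100 bases) and overlaps the PARP2 gene on the other strand, which changed by -0.11. TERC, the RNA template of telomerase, changed by -1.86 ± 0.11 (SE), and of 6 small nucleolar RNAs tested 4 were depleted, with SNORA71A at -2.75 ± 0.14 (SE). Over all genes 8.34% were depleted, and 6 is too few to set a share beside it. Of 9 tested members of a list of known lncRNAs, most but not all of them nuclear, 3 were depleted (MALAT1, KCNQ1OT1 with -1.07 ± 0.14 and FTX, from a mean of 19.3 to 9.19 FPKM) and 1, NORAD, was enriched, where 15.7% of all lncRNAs tested were depleted and 4.04% enriched. The list is too short to set its share beside these. NORAD, the enriched member, is known to be mainly cytoplasmic. NEAT1, the RNA of paraspeckles, changed by -0.92 ± 0.14 (SE) and TUG1 by 0.68 ± 0.050 (SE), neither past 2-fold.

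All depleted lncRNAs named by the rule overlap other genes, and reads of overlapping genes cannot be told apart by strand. ANKRD10-IT1, a lncRNA within the ANKRD10 gene on the same strand, was at 1.75, 2.07 and 2.17 FPKM in WDR5 fRIP and at 18.2, 26 and 23.8 FPKM in input, a change of -2.97 ± 0.10 (SE, adjusted p 7.04e-05). ANKRD10 itself changed by -0.74. The other lncRNAs named by the rule overlap genes on the other strand. RP11-769O8.2 changed by -2.84 ± 0.14 (SE), with YES1 at 0.055, and ALG13-AS1 changed by -2.43 ± 0.27 (SE), with ALG13 at -0.70. ALG13-AS1 was at 0, 0.776 and 0 FPKM in WDR5 fRIP. The log2 fold change of ALG13-AS1 thus rests on the pseudocount, with -4.76 at 0.1 FPKM and -3.14 at 0.5 FPKM. RP11-230C9.3, which overlaps ARID1B (0.68), was at 6.53, 7.84 and 17 FPKM in input and was listed at 0 in all 3 WDR5 libraries, so that no fold is given. In the fit of all 79 libraries its adjusted p was 0.0746, by limma. Of 39 tested lncRNAs whose names mark them as intronic transcripts (-IT1), a group picked after its values were seen, 23 were depleted and 0 enriched by limma, with a median of -1.08 (33 lower and 1 higher at an unadjusted p under 0.05). Of all lncRNAs tested, 15.7% were depleted. Reads of the -IT1 transcripts, ANKRD10-IT1 among them, cannot be told apart from those of unspliced RNA of their host genes. Of the nuclear-encoded mRNA genes, the 5 most depleted, also picked after their values were seen, included the olfactory receptor genes OR52D1 (-2.28 ± 0.089), OR51M1 (-2.24 ± 0.10) and OR51Q1 (-2.08 ± 0.13). All 3 receptor genes overlap, on the other strand, the annotated spans of the globin genes HBE1 and HBG2 and of OR51B5. OR52D1 was at 3.28, 4.79 and 14.5 FPKM against 20.6, 29.8 and 64.7 FPKM, while HBE1 changed by -0.60 ± 0.057 (SE) and HBG2 by -0.72 ± 0.075 (SE). Against all 9 inputs the globin genes changed by -0.67 (adjusted p 0.101) and -0.43 (adjusted p 0.434). The other 2 were HOOK2 (-3.10 ± 0.26), a linker of cargo to microtubules whose span overlaps other genes, and AL590452.1 (-2.43 ± 0.12).

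In the 3 lists of COMPASS mRNAs, 0 of 4, 1 of 6 and 2 of 9 were enriched, counts too small to set beside the 6.22% of all mRNAs. Of the core, 0 of 4 were called by limma, and 2 had an unadjusted p under 0.05. WDR5 mRNA itself was at 36, 34.7 and 63.7 FPKM in WDR5 fRIP and at 18.1, 20.4 and 31.2 FPKM in input. This change of 0.90 ± 0.074 (SE) had an adjusted p of 0.000345 but stayed under 2-fold. Without the replicate block the adjusted p was 0.0511. Against all 9 inputs the change was 1.07 with an adjusted p of 0.000544, which met both criteria for an enriched gene. RBBP5 mRNA changed by 0.45 ± 0.061 (SE, adjusted p 0.0019). ASH2L (-0.020 ± 0.072) and DPY30 (-0.10 ± 0.066) overlapped between the groups. Of the 6 methyltransferase mRNAs, SETD1B was enriched (1.13 ± 0.096, from 5.72 to 13.9 FPKM). KMT2D changed by 0.88 ± 0.065 (SE), SETD1A by 0.47 ± 0.092 (SE), KMT2C by 0.38 ± 0.077 (SE), KMT2B by 0.18 ± 0.10 (SE) and KMT2A by -0.54 ± 0.093 (SE). Of 9 other subunits, WDR82 and NCOA6 were enriched. WDR82, which joins the SETD1 complexes, was at 55.1, 64.5 and 97.6 FPKM against 19.5, 23.1 and 33.6 FPKM, with replicate 3 the highest of both groups, and changed by 1.47 ± 0.053 (SE, adjusted p 7.04e-05). NCOA6, of the KMT2C and KMT2D complexes, changed by 1.31 ± 0.14 (SE). The others ranged from -0.32 for PSIP1, a chromatin reader that binds menin, through 0.47 for MEN1, which encodes menin, to 0.70 for PAXIP1.

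Where 6.22% of all mRNAs were enriched and 1.79% depleted, 0 of the 7 NSL complex mRNAs were called by limma, while 4 were higher and 2 lower at an unadjusted p under 0.05 with changes under 2-fold. Their changes ran from -0.89 for OGT, the O-GlcNAc transferase, and -0.63 for the scaffold KANSL1, to 0.67 for KANSL2, with 0.54 for the acetyltransferase KAT8, 0.54 for KANSL3, 0.20 for MCRS1 and -0.085 for PHF20. OGT overlapped between the groups, with replicate 3 the lowest of both. The mRNAs of 5 tested H3K4 demethylases lay between -0.29 (KDM5B) and 0.081 (KDM5C), with 0 called by limma and 3 lower at an unadjusted p under 0.05. The HOX genes, a known target of COMPASS, showed 9 tested mRNAs of 39 in the table. All 9 had positive changes, with a median of 0.53, and 1 was enriched, HOXB8 with 1.16 ± 0.10 (SE). One call in 9 is too few to set beside the 6.22% of all mRNAs. It was at 20.8, 14.4 and 8.93 FPKM in WDR5 fRIP and at 7.41, 6.35 and 3.87 FPKM in input. The lowest WDR5 value, that of replicate 3, was still above the highest input value. HOXB9 was the most abundant, with means of 112 and 57.4 FPKM and a change of 0.96 ± 0.051 (SE). The lncRNAs HOTTIP and IFNG-AS1, known to bind WDR5, were listed at 0 in all 6 libraries and could not be compared.

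Of the other gene lists, the immediate early genes, which respond within minutes to growth signals and stress, had the highest median. Of 15 tested, 7 were enriched and 0 depleted by limma, with a median of 0.93 and 14 higher and 0 lower at an unadjusted p under 0.05. Over all genes, 5.27% were enriched and the median was -0.09. JUND, a subunit of the AP-1 transcription factor, was at 179, 184 and 190.3 FPKM in WDR5 fRIP and at 55.5, 66 and 65.8 FPKM in input, a change of 1.55 ± 0.061 (SE, adjusted p 7.04e-05). JUN, its relative, was at 41, 36.9 and 19.3 FPKM against 12.9, 12.3 and 6.17 FPKM. Replicate 3 was the lowest in both groups, and the change of 1.54 ± 0.066 (SE) kept the groups apart (adjusted p 7.99e-05). The others enriched were IER2 (1.34), the oncogene MYC (1.31), the survival factor MCL1 (1.08), IER3 (1.04) and KLF10 (1.01). FOS (0.43 ± 0.16, adjusted p 0.0599) and FOSB (0.14 ± 0.17, adjusted p 0.502), further AP-1 subunits, were not called. With the libraries centred on their medians 4 of the 15 were enriched. In STAG2 fRIP the median of the list was 0.34 above input set 2.

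Zinc finger genes of chromosome 19, mostly KRAB repressors, followed with 15 of 180 enriched (8.33%), 2 depleted (1.11%) and a median of 0.27. These shares are near those of all mRNAs (6.22% enriched and 1.79% depleted). ZNF865 had the largest change (1.56 ± 0.11), and ZNF146 was the most abundant of those enriched, with means of 233 FPKM and 88.3 FPKM. The depleted ones were ZNF493 (-1.29 ± 0.11) and ZNF506 (-1.14 ± 0.16). Against all 9 inputs the median of the list was 0.14, and in STAG2 fRIP it was 0.15 above input set 2. With a pseudocount of 0.1 FPKM, 25 of the list were enriched. Of 13 erythroid genes, 2 were enriched, the transcription factor TAL1 (1.26 ± 0.051) and the erythropoietin receptor EPOR (1.30 ± 0.075), and 1 was depleted, the embryonic globin HBZ (-1.03 ± 0.097). Against all 9 inputs HBZ changed by -0.67, with an adjusted p of 0.308. The erythroid counts are too small to set beside the shares of all genes. Lists with medians below 0 also held single enriched members, as SQLE (1.33) and IDI1 (1.19) among 18 genes of cholesterol synthesis, too few to set beside the share of all mRNAs. Of 62 chaperones, 4 were enriched, DNAJC14 (1.47), HSPA6 (1.31), DNAJB1 (1.12) and DNAJC5 (1.02), a share (6.45%) near that of all mRNAs (6.22%). CEP170B and CEP19 were the 2 enriched of 62 kinesins and centrosomal proteins (3.23%), and MRPL50 the 1 enriched of 76 mitochondrial ribosomal proteins (1.32%). Both shares lie below that of all mRNAs.

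**Figure D3:**
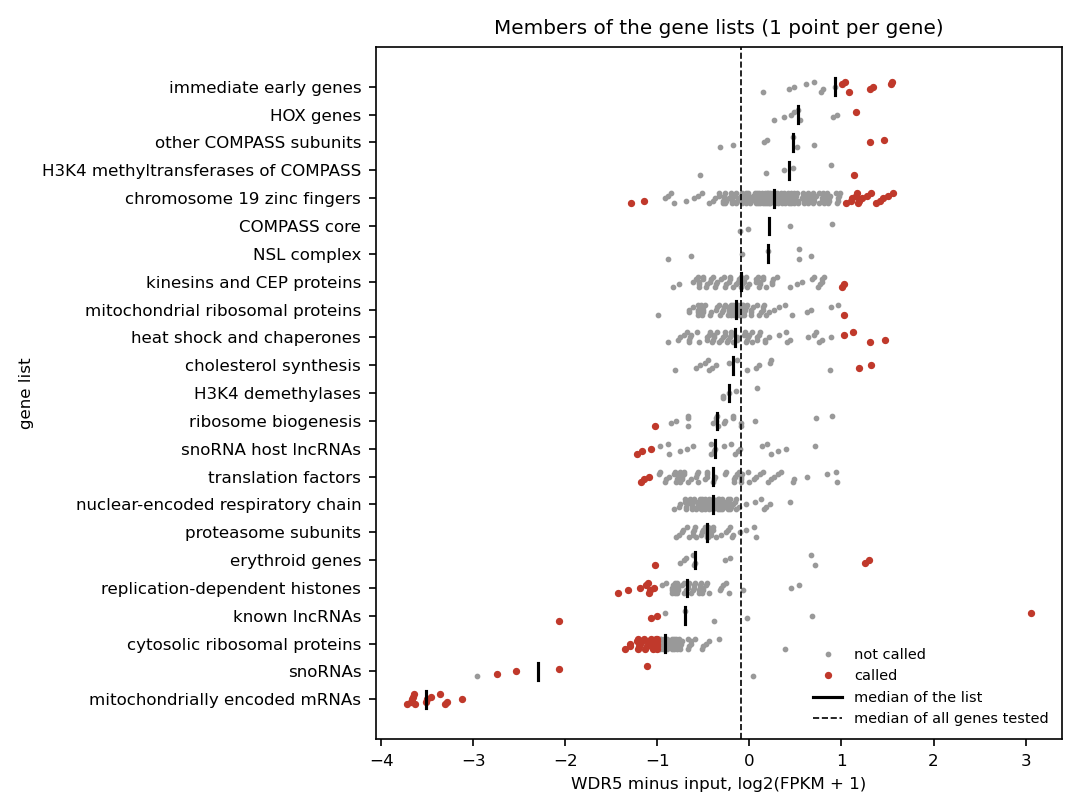
Change of each tested member of the gene lists (WDR5 minus input, log2(FPKM + 1), 1 point per gene), in red where called, with the median of the list as a bar and the median of all genes as a dashed line. The immediate early genes have the highest median (0.93) and the mitochondrially encoded mRNAs the lowest (-3.52).

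Most lists of housekeeping complexes had medians below that of all genes against input set 2. Of 81 cytosolic ribosomal protein mRNAs, 25 were depleted and 0 enriched by limma, with a median of -0.92, where 1.79% of all mRNAs and 8.34% of all genes were depleted. At an unadjusted p under 0.05, 80 were lower and 1 higher. RPLP1, of the stalk of the large subunit, was at 310.4, 282 and 407 FPKM in WDR5 fRIP and at 853, 742 and 846 FPKM in input, a change of -1.30 ± 0.093 (SE, adjusted p 0.000236). The higher one was RPL22L1, a paralog of RPL22, with 0.39. The count depended on the setting, with 15 depleted against all 9 inputs and 41 with centred libraries. Of 54 replication-dependent histone mRNAs, which end in a stem-loop in place of a poly(A) tail, 8 were depleted with a median of -0.68, led by H2AC7 (-1.43 ± 0.10). Against all 9 inputs 0 of them were called, and H2AC7 changed by -0.93 (adjusted p 0.164). Proteasome subunits had a median of -0.46 and nuclear-encoded subunits of the respiratory chain a median of -0.40, with 0 of 36 and 0 of 79 called by limma. At an unadjusted p under 0.05, 31 of the 36 and 68 of the 79 were lower. Against all 9 inputs these medians were nearer 0, at -0.26 and -0.22, where the median of all genes was -0.11. Ribosome biogenesis went from -0.35 to -0.03 and mitochondrial ribosomal proteins from -0.14 to 0.07, both then above all genes. Of 61 translation factors 3 were depleted, EEF1A1, which carries tRNAs to the ribosome (-1.18 ± 0.077), EIF3E (-1.15) and EIF3H (-1.10). Of 20 ribosome biogenesis genes 1 was depleted, the rRNA methyltransferase FBL (-1.03), and of 24 lncRNA hosts of snoRNAs 3 were (15.7% of all lncRNAs were depleted), with SNHG3 at -1.17.

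Lower values of some of these lists were found in STAG2 fRIP too. Its medians against input set 2 were -1.24 for cytosolic ribosomal proteins, -0.95 for histones and -0.98 for the respiratory chain, all below those of WDR5 fRIP. Those of the proteasome (-0.02) and the translation factors (-0.01) were near 0 in STAG2 fRIP. Set directly against STAG2 fRIP, WDR5 fRIP had medians of 0.33 for cytosolic ribosomal proteins, 0.30 for histones, 0.56 for the respiratory chain, -0.43 for the proteasome, 0.79 for the immediate early genes and -2.30 for the mitochondrially encoded mRNAs. These are descriptions with 2 STAG2 libraries and no test.

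Called mRNAs differed in structure from all mRNAs tested. Enriched mRNAs had a median of 4.00 exons and a median length of 2748 bases, against 6.90 exons and 2191 bases over all mRNAs tested, with exon number and length weighted over isoforms by input FPKM. Depleted mRNAs had few exons too, with a median of 4.34 exons but a median length of 1375 bases. Up to 3 exons were found in 250 of 707 enriched, 73 of 203 depleted and 1426 of 11363 tested mRNAs. Of the 281 tested mRNAs with up to 1.5 exons, 53 (18.9%) were enriched and 40 (14.2%) depleted, the latter with all 13 mitochondrial mRNAs. Of 1145 mRNAs with over 1.5 to 3 exons, 197 (17.2%) were enriched, and of 2182 with over 12 exons 42 (1.92%). Across mRNAs, the change correlated negatively with exon number (Spearman's rho -0.208 ± 0.017, mean and SD over the 3 replicate pairs) and positively with length (rho 0.175, 0.155 and 0.210 in the 3 pairs). For length the rho of the fitted change was 0.188, falling to 0.121 against all 9 inputs, and for the difference from RBBP5 fRIP it was -0.149. Genes are not independent replicates, and these correlations are given as descriptions with no p.

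The mean exon length, which is length divided by exon number and was chosen after both were seen, had the highest correlation of the features examined in mRNAs (0.373 ± 0.008 over 11336 mRNAs). Ordered by it, the median change rose with each of 10 equal bins. It was -0.33 ± 0.02 (SD over 3 pairs) in the lowest bin, with mean exons of up to 149.5 bases, and 0.43 ± 0.04 in the highest, with mean exons of at least 889 bases. Enriched mRNAs made up 0.794% of the lowest and 21.8% of the highest bin. Of the genes above, PPP1R26 has a coding exon of 3627 bases, and ZBTB42 and B3GALT6 each have their coding sequence in 1 exon. Level in input, from which the change itself is computed, was also related to it (rho -0.187 ± 0.026), with a rho of -0.197 for the fitted change and of -0.090 against all 9 inputs, and the top bin of 4 by input level had a median of -0.19.

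CG content went along with the change above all in lncRNAs. There, CG dinucleotides per 100 bases of the transcript with most input FPKM correlated with the change at a rho of 0.332 ± 0.038 (2585 lncRNAs), and the share of G and C bases at 0.311 ± 0.039. In the lowest of 4 equal bins of CG density (up to 0.916 per 100 bases), 6 of 647 were enriched and 176 (27.2%) depleted, with a median of -0.60. In the highest bin (at least 3.06), 54 of 646 (8.36%) were enriched and 24 (3.72%) depleted, with a median of 0.09. Mean exon length was only weakly related to the change in lncRNAs (0.100 ± 0.012). In mRNAs CG density had a rho of 0.135 ± 0.041, lower in pair 3 (0.088) than in pairs 1 and 2 (0.157 and 0.161). NORAD and HCG11, with CG densities of 2.17 and 2.16, were in neither the lowest nor the highest bin.

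Both features were related to the change together. With mRNAs split into 4 equal bins of each, the median change in the bin of longest mean exons rose from 0.13 at the fewest CG (995 mRNAs, 6.23% enriched) to 0.66 at the most (577 mRNAs, 30.7% enriched). In the bin of shortest mean exons it was -0.34 and -0.16, with 0.451% and 1.44% enriched. Over all words of 6 bases in the same transcripts, searched on the sense strand with overlaps counted, the 20 with the highest rho in mRNAs all held a CG, and 17 of the 20 in lncRNAs did, where 28.9% of all words do. The highest were GCGCGG in mRNAs (0.201) and GGGCCG in lncRNAs (0.237). The lowest values, -0.083 for TGAAGA in mRNAs and -0.109 in lncRNAs, were nearer 0. A weak correlation of a word in such a scan is a description of base content and no binding site.

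**Figure D4:**
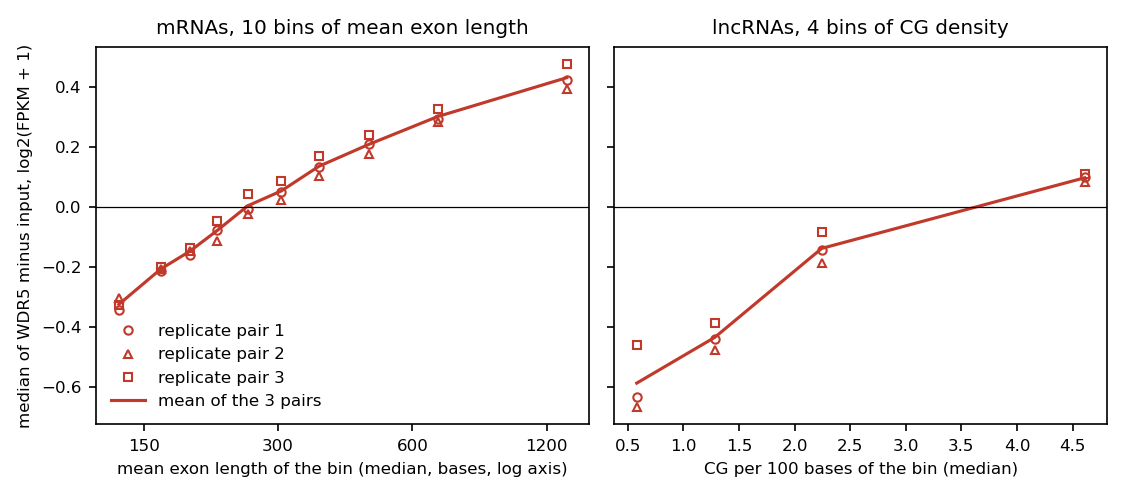
Median change (WDR5 minus input, log2(FPKM + 1)) in each of the 3 replicate pairs (symbols) and their mean (line), for mRNAs in 10 bins of mean exon length (left, log axis) and lncRNAs in 4 bins of CG dinucleotides per 100 bases (right). In every pair the medians rise over all bins, from -0.33 to 0.43 in the mean of mRNAs and from -0.59 to 0.10 in that of lncRNAs.

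The isoform table was used to see which isoforms of a gene carry the change. Of 54640 isoforms tested, 2778 (5.08%) were enriched and 5029 (9.2%) depleted. Isoforms annotated as retaining an intron were mostly lower, with 140 of 9998 enriched, 1642 depleted (16.4%) and a median of -0.55. Coding isoforms had 1809 of 25484 enriched (7.10%), 1143 depleted (4.49%) and a median of 0.005, and isoforms marked for nonsense-mediated decay a median of -0.06. Within the same genes, the change of isoforms with a retained intron lay below that of coding isoforms in 3295 of 4227 mRNA genes (78.0%), with a median difference of -0.49 ± 0.09 (SD over 3 pairs). For isoforms marked for decay the difference was -0.02 ± 0.01. For isoforms of coding genes with no defined coding sequence it was -0.26 ± 0.02, with a lower value in 65.1% of 3394 genes. The counts of called isoforms depended on single pairs: without replicate pair 1 there were 1572 enriched and 1186 depleted isoforms and without pair 2 1868 and 1330, and with centred libraries 4204 were enriched and 2800 depleted.

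**Figure D5:**
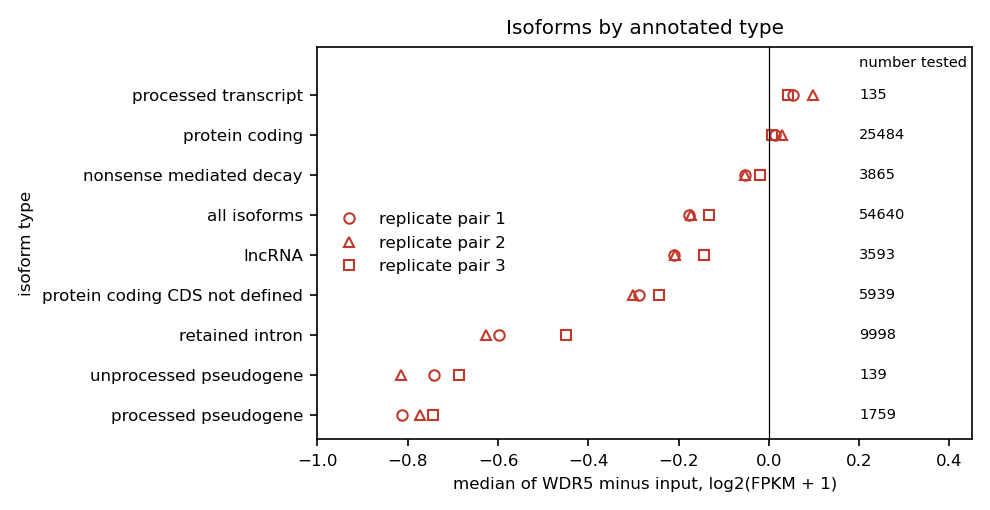
Median change of isoforms (WDR5 minus input, log2(FPKM + 1)) by their annotated type in each of the 3 replicate pairs (symbols), with the number of isoforms tested at the right. Isoforms with a retained intron lie between -0.63 and -0.45 and coding isoforms between 0.01 and 0.03.

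Of 8914 genes with at least 2 tested isoforms, 479 had both an enriched and a depleted one. RABGGTB, a subunit of the enzyme that attaches lipids to Rab proteins, had a coding isoform of 9 exons at 70.3, 80.3 and 103 FPKM against 16.4, 21.2 and 21.2 FPKM and an isoform of 2 exons that fell from between 15.5 and 22.4 FPKM to at most 0.003 FPKM. Others were PRKDC, the catalytic subunit of the DNA-dependent protein kinase, the transcription factor MGA and the RNA-binding protein HNRNPR. How reads that fit several isoforms were divided was settled in the authors' quantification, and values of single isoforms are less certain than those of genes.

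RBBP5 fRIP asked the same question of a core partner of WDR5, and the fit of WDR5 against RBBP5 libraries used no input. Of 17998 genes tested, 1266 (7.03%) were higher and 3145 (17.5%) lower in WDR5 fRIP. The RBBP5 libraries were shallower, with about 6.8 to 8.4 M fragments. NORAD was at 82.7, 83.2 and 99.8 FPKM in RBBP5 replicates 1, 2 and 3, where input had 62.3 to 74.2 FPKM, and was higher in WDR5 fRIP by 2.69 (adjusted p 0.000217). CHST2 was at 15.6, 19.5 and 15.5 FPKM in RBBP5 fRIP and higher in WDR5 fRIP by 2.75 (adjusted p 0.000127). PPP1R26, HCG11, ZBTB42 and B3GALT6 were higher by 2.72, 2.46, 2.63 and 2.62. These RNAs, NORAD and CHST2 were named for high values in the same WDR5 libraries, which favours a positive difference. MALAT1 was at 15301, 12163 and 12398 FPKM in RBBP5 fRIP, more than in input, and was lower in WDR5 fRIP by 4.02 on the log2 scale (adjusted p 0.000207).

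Of the COMPASS mRNAs, WDR82 was higher than in RBBP5 fRIP by 1.17, SETD1B by 1.49 and WDR5 by 0.95, while RBBP5 mRNA differed by 0.28 (adjusted p 0.123). The mitochondrially encoded mRNAs had a median difference of -2.25 and the immediate early genes of 0.92. The cytosolic ribosomal proteins (0.04) and histones (0.08) differed little between the fRIPs in the median. Across mRNAs the difference between WDR5 and RBBP5 fRIP had a rho of 0.452 with CG density and 0.129 with mean exon length, and across lncRNAs a rho of 0.457 with CG density. In the lowest of 4 bins of CG density in lncRNAs, the median difference was -1.23.

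Among the 24 proteins of the series, each set against input set 2, WDR5 fRIP had the highest mean rho of mean exon length with the change in mRNAs, ranging over its libraries from 0.320 to 0.368. Mean exon length was chosen with the WDR5 values seen, which favours WDR5 in this ranking. EZH2, the methyltransferase of a Polycomb repressive complex, came next with 0.296 and 0.352 in its 2 libraries, and the ranges of both overlap. IMP1 (0.291, up to 0.319), HUR (0.288, up to 0.322) and RBBP5 (0.239) followed, and STAG2 was at -0.014. For CG density in lncRNAs WDR5 had rank 4 with 0.327 (0.273 to 0.359), behind CBP, DNMT1 and EZH2, while STAG2 was at 0.108 and RBBP5 at -0.354. NORAD and HCG11 had their largest change in WDR5 fRIP, with EZH2 second at 2.64 and 2.30. For NORAD the libraries overlapped (2.83 to 3.33 in WDR5 and 2.21 to 3.07 in EZH2 fRIP). Both, like PPP1R26, CHST2 and ZBTB42, were named for their change in WDR5 fRIP, which favours WDR5 here. For PPP1R26, CHST2 and ZBTB42 EZH2 fRIP was higher than WDR5 fRIP, at 4.80, 3.58 and 4.21. In STAG2 fRIP the changes of NORAD, HCG11, PPP1R26, CHST2 and ZBTB42 were 0.24, 0.45, 0.16, -0.12 and 0.12. JUN changed more in EZH2 (2.12) and CHD1 (1.66) fRIP than in WDR5 fRIP. WDR82 had its largest mean change in WDR5 fRIP (1.47, libraries 1.12 to 1.93), with HNRNPH1 next (1.42, 1.21 to 1.66), and their ranges overlap. MALAT1 had a lower mean than in WDR5 fRIP in 5 fRIPs. One of them, HNRNPH1, had libraries on both sides of input, from -11.7 to 2.82, and among the other 4 the lowest was PABP (-5.85). RPLP1 was below its WDR5 value in 19 fRIPs, STAG2 among them (-1.78). All these values share the input libraries and are set side by side without a test.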

How the data were processed

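Values were analysed as the authors deposited them, as FPKM per gene and per isoform for each library. Per the labels and the study's methods, paired-end reads of 31 bases were aligned to hg19 with TopHat and quantified with Cuffdiff against GENCODE. The methods name the library kit without stating strand, and it was taken as one that does not mark strand. The tables of the authors' own comparisons hold pooled levels, fold changes and tests and were not used. Genes that reached 1 FPKM in 2 or more of the 6 libraries were tested on log2(FPKM + 1) with limma 3.58.1 (R 4.3.3, intensity trend), which was tested on simulated data first. Replicate number was a block in the fit against input, as laid down for the comparison. Deviations from the group means correlated by 0.438, 0.231 and 0.585 for libraries of the same number and by -0.493 to 0.236 for other pairs. For WDR5 replicate 2 the value with input replicate 1 (0.236) was as high as that with input replicate 2 (0.231). The fit against RBBP5 fRIP had no block. Depth was estimated from the steps of low FPKM values (95.6% to 97.0% of them within 0.15 of a whole fragment, for fragments of 200 bases) and is approximate. Of 48453 genes, 46055 were matched to GENCODE v44 lifted to GRCh37 for names, classes and sequence.

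Named RNAs were those called with groups apart and a mean of at least 5 FPKM in the higher group that had the largest changes (10 mRNAs, 5 lncRNAs and 5 others in each direction), WDR5, RBBP5 and CHST2, all COMPASS and NSL members, and the extremes of each gene list. Other RNAs were named after their values were seen. Comparisons, lists and members were chosen with earlier results of these data known. Alternatives were the inputs used, the block, pseudocounts of 0.1 and 0.5 FPKM, filters, centred libraries, the trend and leaving out each replicate. List counts under these alternatives, mean exon length and the STAG2 values were added after seeing the data. A few items that the rule would name are not reported here.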

Additional observations from a re-analysis of the deposited data

How the results depend on the processing

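Counts of enriched genes stayed within 1.5 times of 895 in all alternatives run, as did those of depleted genes except with a pseudocount of 0.1 FPKM (2343) and among genes with a mean of at least 5 FPKM (306 of 10488 tested), where the enriched share of calls was 71.8% in place of 38.7%. With centred libraries this share was 28.9%. Leaving out each replicate gave 881 to 964 enriched and 1370 to 1521 depleted genes. Without the replicate block, 846 and 1324 genes and 2496 and 4702 isoforms were called, and with the block in the fit against RBBP5 fRIP 1353 genes were higher and 3310 lower, so that the block moved no count by more than 1.5 times. Isoform counts were less stable, at 1727 enriched and 1024 depleted with a mean of at least 5 FPKM, 4204 and 2800 with centred libraries, and 1572 to 2694 and 1186 to 4913 without single replicates, the lowest without replicate 1. Genes lower than in RBBP5 fRIP were 1001 with a mean of at least 5 FPKM, and the enriched share of calls was then 51.7% in place of 28.7%. Of 851 values of 71 genes under the alternatives, 813 kept direction and side of the adjusted p of 0.05, 35 (14 genes) lost it and 3 changed sign. Of the 14, only RP11-230C9.3 (all 79 libraries) and the mitochondrial tRNAs MT-TR, MT-TL2, MT-TY and MT-TL1 (no filter on low values) were called. The others, all under 2-fold against input set 2, were WDR5, KMT2C, KMT2D, SETD1A, MEN1, PSIP1, HCFC1, OGT and MCRS1, each without the replicate block and some under other settings too. The 3 that changed sign were ASH2L without replicate 1 (0.015) and replicate 2 (0.034), with -0.11 without replicate 3, and DPY30 against all 9 inputs (0.21), all in genes with no call. The causes were not tested. Depth limits low genes most in WDR5 replicate 3 and in RBBP5 fRIP, and the sources do not say which input set belongs to which fRIP.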
